A study of Mus musculus with 2 samples.

Results

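Genes that mark the biliary epithelium, liver progenitors or the simple epithelial cytoskeleton were followed in primary hepatocytes of control and Drp1LiKO mice. The 10 genes were *Krt7*, *Krt8*, *Krt18*, *Krt19*, *Krt23*, *Epcam*, *Sox9*, *Spp1*, *Cd24a* and *Prom1*. Every transcript probe that carried one of these gene names was taken, which gave 10 of the 37074 gene names on the array and 15 of its 56605 probes. Control cells came from Drp1flox/flox littermates, called wild type in the sample labels, and Drp1LiKO cells from Drp1flox/flox mice that also carried one Alb-Cre transgene, all on a C57BL/6 background. Both groups thus held the floxed alleles. The albumin promoter directs the recombinase to hepatocytes. Whether it also acted in other liver cells, those of the bile ducts included, was not examined here. Liver was digested with collagenase, the low-speed pellet was seeded on collagen, the medium was changed after 4 h and RNA was taken 24 h after seeding. The age and sex of these animals, and whether animals were pooled, are not given in the sources used here. One Agilent array of 60-base probes was hybridized per group.

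Keratins are the intermediate filament proteins of epithelia, and a filament needs a type I and a type II partner. Hepatocytes are known for the simple pair of *Krt8*, type II, and *Krt18*, type I, whereas cells lining the bile ducts also carry *Krt7* and *Krt19*. In injured liver, duct-like and progenitor cells can appear in the ductular reaction, and *Epcam*, *Sox9*, *Spp1*, *Cd24a* and *Prom1* are among the genes used to recognise them.

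Each group had 1 array. No test or p-value was therefore possible, and every difference stated here holds for these 2 arrays only. The values are processed signals, an intensity from which the local background had been subtracted. A log2 ratio is the log2 signal of Drp1LiKO minus control cells, each taken relative to the 75th percentile of its own array, at a signal of 313 in control cells and 356 in Drp1LiKO cells. Equal raw signals therefore give a ratio slightly below 0. Well above background were 27256 probes (48.2%) in control and 29462 (52.0%) in Drp1LiKO cells, and the 20165 genes with a probe well above background on at least 1 array were compared by their brightest probe. The Z score of a ratio is its distance from the mean of all compared probes in units of their SD of 0.65. A Z score of 2 was reached at a log2 ratio of 1.30, or 2.46-fold, and a Z score of -2 at -1.31. The targeted gene Drp1, listed as *Dnm1l*, gave 2602 in control and 1217 in Drp1LiKO cells by its brighter probe, a log2 ratio of -1.28 with a Z score of -1.95. Its other probe, near the detection limit, gave 22.8 and 20.9, a log2 ratio of -0.31.

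Among the 10 genes, *Krt23* alone passed the threshold. It rose 4.81-fold, while the main hepatocyte pair *Krt8* and *Krt18* and the duct keratin *Krt19* stayed within 0.40 of 0 on the log2 scale. *Cd24a* and *Sox9* had higher signals in Drp1LiKO cells without passing it, *Spp1* had a lower one, and *Epcam* was not well above background on either array. Of the 10 genes, 9 could be compared, 8 of them on both arrays. Of these, 1 was higher past the threshold, against 3.50% of all 20165 genes compared, and 0 were lower, against 2.81%. Ratios above 0 were found for 5 and below 0 for 4, where 44.5% of all genes compared were above 0. The median ratio of the 9 genes was 0.03, beside -0.05 over all genes. The 5 above 0 include *Krt7*, which was compared only because it was well above background in Drp1LiKO cells. Over the 8 genes well above background on both arrays the median was -0.02, beside -0.05 over all such genes. No probe of the 10 genes had saturated pixels, and each was printed in 1 spot per array.

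**Figure D1:**
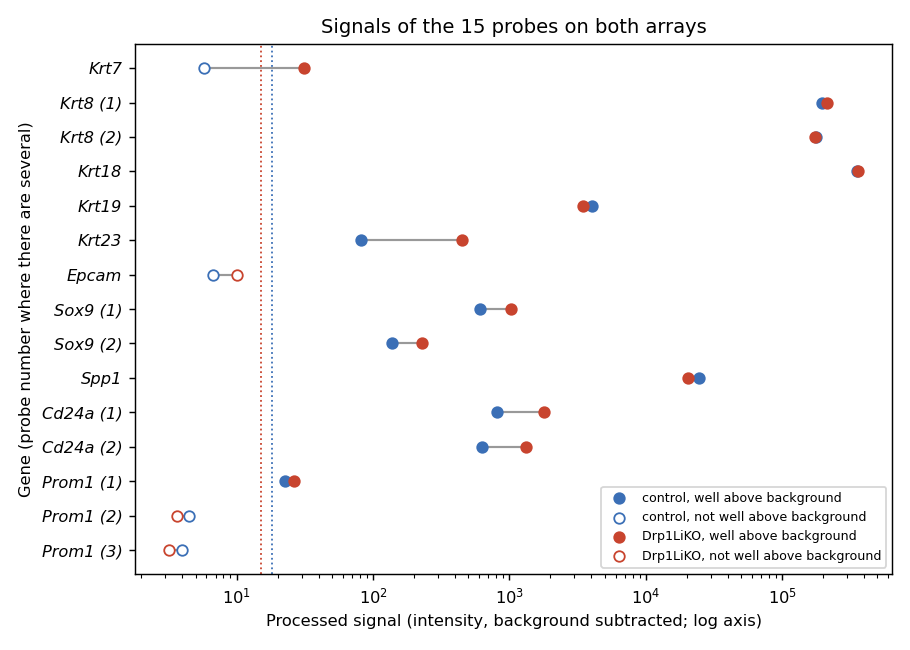
Processed signal (log axis) of each of the 15 probes on the control array (blue) and the Drp1LiKO array (red), with open circles where a signal was not well above background and dotted lines at the detection limits of 18.2 in control and 15.0 in Drp1LiKO cells. *Krt23* shows the widest gap between filled circles, from 81.7 to 446, and the circles of *Krt8* and *Krt18* nearly coincide.

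The keratins of resting hepatocytes hardly differed between the arrays. *Krt18*, the type I partner, gave a signal of 351492 in control and 360199 in Drp1LiKO cells, a log2 ratio of -0.15. *Krt8*, the type II partner, went from 196701 to 212015 at its brighter probe, a log2 ratio of -0.07. The other *Krt8* probe gave 177236 and 173856, a log2 ratio of -0.21, so both probes lay slightly below 0. Between the brightest probes of the pair the ratios differed by 0.07. The noise between single spots, taken from the 5 probes of nearest signal among those printed 10 times, was 0.054 on the log2 scale for the ratio of *Krt18* and 0.048 for that of *Krt8*. It covers printing and reading of spots, not the spread between cultures. Under quantile normalization the sign turned for both genes, to 0.07 for *Krt18* and 0.08 for *Krt8*, and it also turned in the deposited normalized values. No direction can therefore be given for the pair.

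The duct keratins *Krt19* and *Krt7* did not move together. *Krt19*, a type I keratin of bile duct cells, gave 4049 in control and 3482 in Drp1LiKO cells. Its log2 ratio of -0.40, with a Z score of -0.60, was larger than the spot noise of 0.093, and it stayed between -0.40 and -0.34 under every alternative run. *Krt7*, the type II keratin of the same cells, had a signal of 5.76 in control cells, not well above background, and 31.1 in Drp1LiKO cells, which was. Set against the lowest signal well above background on the control array, *Krt7* was at least 1.50-fold higher in Drp1LiKO cells, a Z score of 0.91 for the bound. With the control signal taken as it was, the log2 ratio was 2.25 and passed the threshold. The deposited normalized table gave 6.60 and 16.0 for this probe, too low for any bound.

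*Krt23* was the only keratin among the 10 genes that rose past the threshold. It encodes a type I keratin that is low in healthy liver and is known from the ductular reaction. Its signal was 81.7 in control and 446 in Drp1LiKO cells, a log2 ratio of 2.27 with a Z score of 3.49. Both signals were well above background, and the spot noise at this signal was 0.16. The array held 1 probe for the gene, so no second probe bears on the value. The ratio was 1.63 with normexp background correction of the raw signals, and from 2.26 to 2.31 under every other alternative, the deposited values included. It passed the threshold under all 13.

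Since keratins resemble one another in their rod domain, the probes of the 3 keratins with the least uniform behaviour are printed here, and each reads through without a stop codon in at least 1 frame. The capitals mark the longest run of at least 14 bases that also stands in a probe of a different gene on this array.
*Krt23* (mm9, chr11:99339393-99339452, minus strand): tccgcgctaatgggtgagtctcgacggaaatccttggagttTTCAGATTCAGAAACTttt
*Krt7* (mm9, chr15:101253718-101253777, plus strand): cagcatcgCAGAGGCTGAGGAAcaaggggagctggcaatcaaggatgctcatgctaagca
*Krt19* (mm9, chr11:100002392-100002451, minus strand): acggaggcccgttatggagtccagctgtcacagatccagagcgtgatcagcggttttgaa
The *Krt23* run of 16 bases is shared with a probe of *Strbp* and the *Krt7* run of 14 bases with one of *Iqgap1*, neither of them a keratin. The *Krt19* probe shares no run of that length. Over all 15 probes the longest shared run was 16 of 60 bases. The comparison covers the probes of the array only, and unlisted copies of a gene, such as processed pseudogenes of *Krt8* and *Krt18*, were not examined.

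Besides these 5 keratins, the array held 47 other keratin genes, and most were silent at its detection limit. Of the 47, 29 were not well above background on either array. Among the 18 that could be compared, 2 were higher and 1 was lower past the threshold, and the median ratio was -0.05. *Krt17*, a type I keratin of injured and basal epithelia, rose from 1635 to 10495, a log2 ratio of 2.50 with a Z score of 3.84. *Krt20*, a type I keratin best known from gut epithelium and urothelium, rose from 800 to 2952, a log2 ratio of 1.70 with a Z score of 2.62, which fell to 1.85 where dim signals were not raised to a floor. *Krt12*, the keratin of corneal epithelium, gave 33.6 in control cells and 3.19, not well above background, in Drp1LiKO cells, and was at least 2.54-fold lower. *Krt80* had the lowest ratio measured on both arrays, -0.99, which did not pass the threshold.

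The keratins past the threshold all lay in the type I cluster on chromosome 11. Of 27 keratins with probes on this chromosome, 12 could be compared, and 3 were higher (*Krt17*, *Krt20* and *Krt23*) and 1 lower (*Krt12*, a bound). Of 24 on chromosome 15, which holds the type II cluster and *Krt18*, 10 could be compared and 0 passed in either direction. Over all genes compared, 3.50% were higher and 2.81% lower, so with 10 keratins nothing particular to chromosome 15 can be read from the 0. The probes of *Krt12* (from 99277378 in mm9), *Krt20* (from 99289776) and *Krt23* (from 99339393) are close together, and those of *Krt19* (from 100002392) and *Krt17* (from 100117584) lie further along. The median ratio was -0.11 on chromosome 11 and -0.01 on chromosome 15. Neighbours thus had ratios of opposite sign, and the difference between the clusters was not tested.

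**Figure D2:**
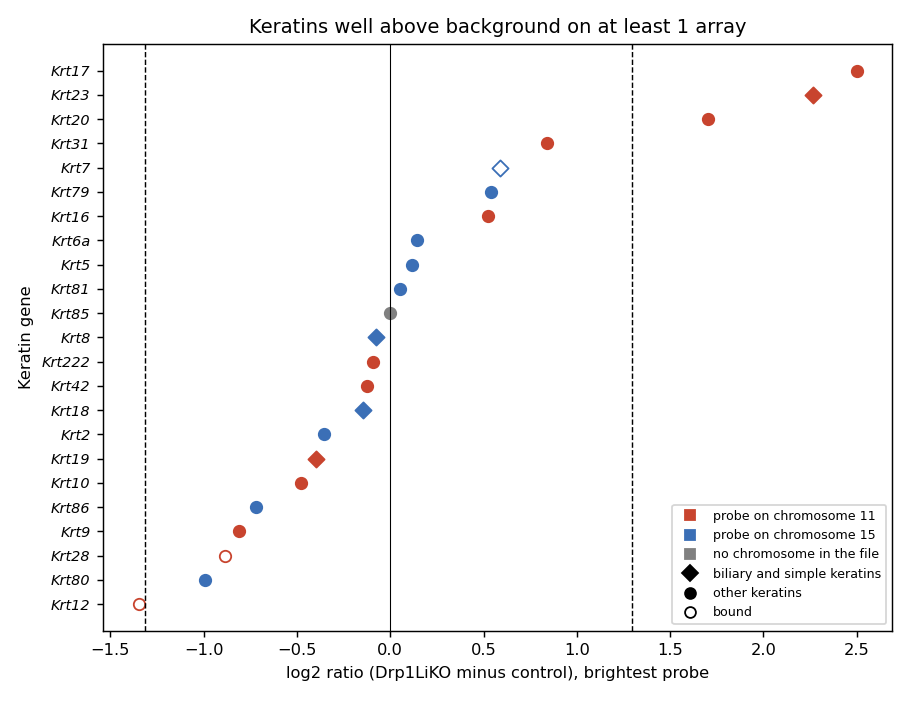
Log2 ratio (Drp1LiKO minus control) of the 23 keratins well above background on at least 1 array, by brightest probe and colored by the chromosome of the probe, with dashed lines at Z scores of 2 and -2. *Krt17*, *Krt23* and *Krt20*, all on chromosome 11, stand to the right of the upper line, and the bound of *Krt12* lies past the lower one.

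*Cd24a* and *Sox9* were the genes of the progenitor group with higher signals in Drp1LiKO cells, each by more than the spot noise and with its probes in accord. *Cd24a*, a small surface glycoprotein of progenitor cells and of several blood cell types, gave 812 in control and 1795 in Drp1LiKO cells. The log2 ratio was 0.96 with a Z score of 1.49. Its other probe gave 625 and 1326, a log2 ratio of 0.90, so the probes differed by 0.06. *Cd24a* passed the threshold under 4 of the 13 alternatives, which were normexp correction, no filter on dim probes, a robust Z score built on medians, and a Z score within bins of similar signal. The robust score called 8.54% of all genes higher and 7.16% lower, and the score within bins 3.17% and 3.62%. Normexp correction called 731 of 20165 genes higher and 546 lower, and no filter 1355 and 597 of 37071. With a plain 2-fold minimum, which 5.32% of genes exceeded upward and 4.59% downward, *Krt23* was again the only one of the 10 genes called. Among markers of such blood cells, *Cd79a* of B cells and *S100a8* and *S100a9* of neutrophils were not well above background on either array. *Pax5* of B cells gave 27.5 and 21.8, a ratio of -0.52, while its other probe gave 0.38. The neutrophil marker *Ly6g* gave 17.5, not well above background, in control cells and 76.9 in Drp1LiKO cells, and was at least 3.72-fold higher. Of 7 neutrophil markers 5 were not well above background on either array, and the summed signals of the list were 63.8 in control and 132 in Drp1LiKO cells. The part of these cells in the *Cd24a* ratio was not tested.

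*Sox9*, the transcription factor of bile duct cells and their precursors, gave 605 in control and 1026 in Drp1LiKO cells, a log2 ratio of 0.58 with a Z score of 0.90. The dimmer probe gave 138 and 229, a log2 ratio of 0.55. Spot noise was 0.11 and 0.14 for these ratios. No alternative took *Sox9* past the threshold or below 0, and its lowest value was 0.46, in the deposited normalized table. The dimmer probe shares no run of 14 bases with a probe of another gene, so it is printed as the second reading of the gene.
*Sox9* (mm9, chr11:112646642-112646701, plus strand): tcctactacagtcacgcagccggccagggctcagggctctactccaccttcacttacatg

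*Spp1* had a lower signal in Drp1LiKO cells, and no direction can be given for *Prom1* and *Epcam*. *Spp1* encodes osteopontin, a secreted glycoprotein of bile duct cells that macrophages and other cells also make. It gave 24719 in control and 20346 in Drp1LiKO cells, a log2 ratio of -0.46 with a Z score of -0.70. The spot noise was 0.073, and the ratio stayed below 0 under every alternative run. *Prom1*, the membrane glycoprotein also called CD133, was read near background, at 22.8 in control and 26.3 in Drp1LiKO cells by one probe. That log2 ratio of 0.03 was smaller than the spot noise of 0.32, and its sign turned under 3 alternatives. The other 2 *Prom1* probes were not well above background on either array, with signals between 3.22 and 4.47. *Epcam*, the adhesion molecule by which duct cells are commonly sorted, had signals of 6.69 and 9.99, not well above background on either array. Its only probe crosses an intron of the genome, and because the absence of *Epcam* signal rests on it alone it is printed here.
*Epcam* (mm9, chr17:88048972-88049800, plus strand): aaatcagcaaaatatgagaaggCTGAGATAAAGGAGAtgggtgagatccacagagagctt
Its run of 15 bases is shared with a probe of *Rgs6*.

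**Figure D3:**
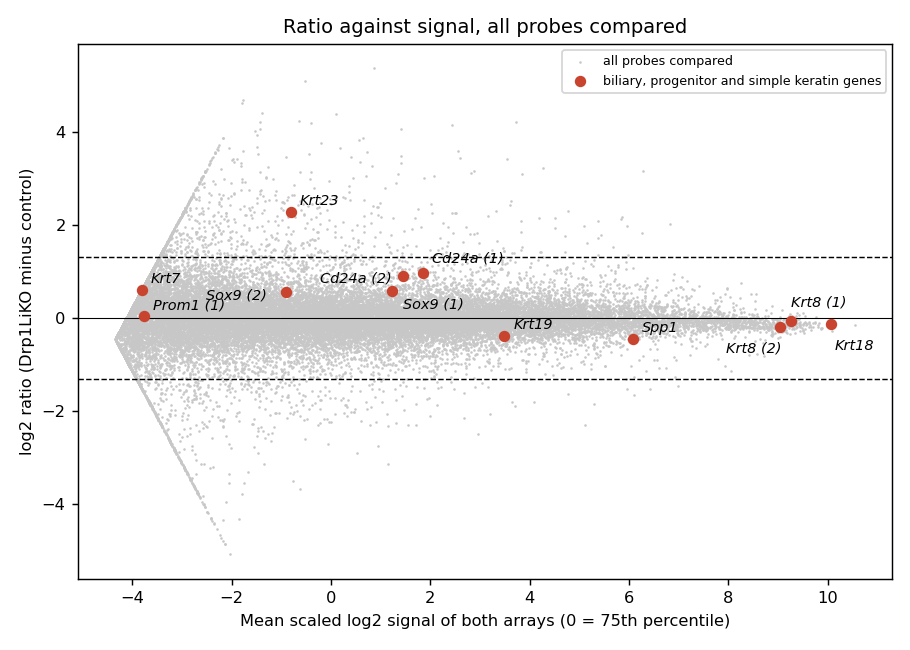
Log2 ratio (Drp1LiKO minus control) against mean scaled log2 signal for all compared probes (gray) and for the 12 compared probes of the biliary, progenitor and simple keratin genes (red), with dashed lines at Z scores of 2 and -2. *Krt23* is the one red point outside the lines, *Cd24a* lies below the upper line with both its probes, and *Krt7* and *Prom1* sit at the dim edge.

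Other genes of bile duct cells gave no common direction. Of 27 such genes, 20 could be compared, 2 were higher and 1 was lower past the threshold, and the median ratio was -0.21. *Aqp1*, a water channel of duct cells and endothelium, rose from 153 to 646, a log2 ratio of 1.90, and its Z score was 2.92, or 1.82 in the deposited normalized values. *Pkhd1*, the ciliary protein fibrocystin, rose from 27.9 to 187 by its brightest probe, a log2 ratio of 2.57, but another probe of the gene gave -0.77 and the deposited normalized values gave -1.01. *Bicc1*, an RNA-binding protein of duct and kidney epithelium, fell from 1512 to 533, a log2 ratio of -1.69 with a Z score of -2.57, or -1.93 without a floor. The brightest genes of this list, *Onecut2*, *Anxa4* and *Cdh1*, had ratios of 0.04, -0.15 and 0.04. *Cftr* and *Sctr*, the chloride channel and secretin receptor of duct cells, were not well above background on either array.

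The further progenitor and ductular reaction genes were mixed in the same way. Of 18 genes, 12 could be compared, with 1 higher and 1 lower past the threshold and a median ratio of -0.21. *Lcn2*, a secreted iron-siderophore carrier made by stressed hepatocytes and by leukocytes, rose from 7165 to 26508, a log2 ratio of 1.70 with a Z score of 2.63, or 1.85 without a floor. *Dlk1*, a membrane protein of fetal hepatoblasts, fell from 160 to 70.0, a log2 ratio of -1.37 with a Z score of -2.09 that missed the threshold under 4 of the alternatives. The brightest genes, *Anxa2*, *S100a6* and *Anxa3*, had ratios of -0.32, -0.83 and -0.17.

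Of the Notch and Hippo pathways, which act on *Sox9* and on duct fate in liver, 0 genes passed the threshold in either direction, beside 3.50% of all genes higher and 2.81% lower, so nothing particular to these lists can be read from the count. In the Notch list 12 of 19 genes could be compared, with a median ratio of 0.10 whose sign turned under 4 of 10 alternatives. The receptor *Notch1* gave 88.6 and 242, a log2 ratio of 1.27, and the glycosyltransferase *Mfng* gave 103 and 284, a log2 ratio of 1.28, both just short of the threshold. *Notch4*, a receptor of endothelium, had a ratio of 1.24, while another of its probes gave -1.53. The ligand *Jag1* gave 1088 and 1533, a ratio of 0.31, and the receptor *Notch2* gave 1153 and 1107, a ratio of -0.24. The brightest of this list, *Rfng*, *Maml1* and *Jag1*, stayed within 0.31 of 0. All 19 genes of the Hippo and YAP list could be compared, 14 of them with a ratio below 0, where 44.5% of all genes were above 0. The median of this list was -0.35, beside -0.05 over all genes. The YAP targets *Ctgf*, *Cyr61* and *Ankrd1* had ratios of -0.27, -0.67 and -0.41, and *Yap1* itself -0.35.

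Counts past the threshold among partners of the keratin network stand beside 3.50% of all genes higher and 2.81% lower. With lists this short, nothing particular to these partners can be read from the counts. Among 15 linker and desmosome genes, 14 could be compared, 0 were higher and 1 was lower past the threshold, and the median ratio was -0.14. The one was *Pkp1*, a plakophilin of desmosomes, at least 2.71-fold lower with a signal of 35.7 in control and 6.88, not well above background, in Drp1LiKO cells. *Plec*, which ties keratin filaments to other structures, gave 23497 and 15374, a ratio of -0.79, while its other probe gave -0.14. *Vim*, the mesenchymal filament protein, had a ratio of -0.12. The 8 genes whose proteins gather with *Krt8* and *Krt18* in Mallory-Denk bodies, the keratin aggregates of diseased hepatocytes, had a median of 0.02 and 0 past the threshold. The ubiquitin-binding adaptor *Sqstm1* gave 77374 and 108415, a ratio of 0.30, and the chaperone *Hspb1* a ratio of -0.37. Of 11 epithelial junction genes, 10 had a ratio below 0, where 44.5% of all genes compared were above 0. Their median was -0.40, beside -0.05 over all genes. *Cldn1*, a claudin of tight junctions, was above 0 and rose from 262 to 830, a log2 ratio of 1.48 with a Z score of 2.28, or 1.60 without a floor.

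The labels call both samples primary hepatocytes, and all 12 hepatocyte markers were well above background on both arrays. *Alb* gave 219613 in control and 266703 in Drp1LiKO cells, a log2 ratio of 0.10, *Apoa1* had a ratio of -0.17 and *Ttr* one of 0.54. The 12 markers had a median of 0.10, with 1 higher and 0 lower past the threshold. That one was *Cyp3a11*, a drug-metabolising cytochrome, which rose from 736 to 3408, a log2 ratio of 2.03. *Cps1* of the urea cycle gave 65.4 and 116, and *Tat*, an enzyme of tyrosine breakdown, gave 151 and 416, so in control cells both lay below the 75th percentile of the array. *Cyp2e1*, another cytochrome, gave 12679 and 8360, a ratio of -0.78. Of the defining markers of cholangiocytes, the cells of the bile ducts, *Epcam* was not well above background on either array, *Krt7* on the control array, and *Krt19* was so on both. The 8 markers of that cell type had summed signals of 29691 in control and 25181 in Drp1LiKO cells, most of it *Spp1*.

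Markers of other liver cells were higher in Drp1LiKO cells. All 12 compared markers of Kupffer cells and macrophages had a ratio above 0 and 11 passed the threshold, with a median of 2.42 and summed signals of 5029 in control and 21690 in Drp1LiKO cells. Of these 12, *Clec4f* and *Vsig4* entered through the Drp1LiKO array alone, and both passed. *Clec4f*, which defines Kupffer cells, was not well above background in control cells. It was at least 5.75-fold higher in Drp1LiKO cells, and *Adgre1* rose by a log2 ratio of 2.65. *Mpeg1*, past the threshold with a ratio of 1.73, had another probe that gave -0.49. The 9 compared markers of endothelial cells were all above 0, with 4 past the threshold, a median of 1.26 and summed signals of 4465 and 9136. Among the 9, *Lyve1* and *Tek* were compared only because they were well above background in Drp1LiKO cells, and *Lyve1* is 1 of the 4. Of 9 compared markers of stellate cells and fibroblasts, 8 were above 0 and 4 past the threshold, with a median of 1.04. Among these, *Col3a1*, *Pdgfrb*, *Des* and *Rgs5* were compared only because they were well above background in Drp1LiKO cells, and *Col3a1* and *Pdgfrb* are 2 of the 4 past the threshold. *Col1a2*, also among the 4, had a ratio of 2.93, while another of its probes gave -0.18. Summed signals of this list were 21979 and 30170, most of it *Acta2*, which gave 21437 and 24640, a ratio of 0.02 by its brightest probe. Another *Acta2* probe gave a ratio of 2.20. *Lrat* was not well above background on either array. *Trem2* and *Gpnmb* of lipid-associated macrophages rose by 3.66 and 1.87, although the median of that list was 0.08. *Msln*, of the mesothelial cells that cover the liver and express simple keratins, gave 52.5 and 143, a ratio of 1.26, while 4 of 6 mesothelial markers, *Upk3b* among them, were not well above background on either array. The T cell marker *Cd3e* gave 251 and 220, a ratio of -0.37, while its other probe gave 0.26. *Cd3d* was not well above background on either array. The part of these cells in the ratios of *Krt7*, *Krt23*, *Cd24a*, *Sox9*, *Aqp1*, *Lcn2* and the Notch genes was not tested. In such bulk samples, more cells of a type and more RNA per cell cannot be told apart.

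**Figure D4:**
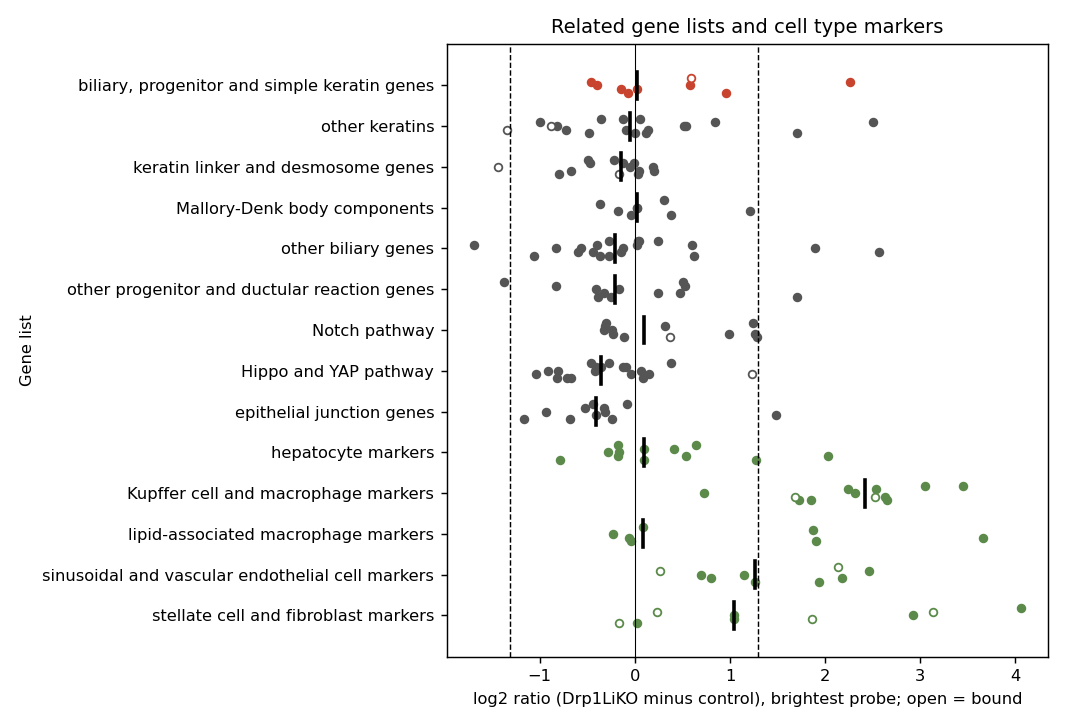
Log2 ratio (Drp1LiKO minus control) of each compared gene of the related lists (gray), of the 10 genes described (red) and of cell type markers (green), with the median of each list as a vertical bar and dashed lines at Z scores of 2 and -2. The markers of Kupffer cells and macrophages center on 2.42, whereas the biliary, progenitor and simple keratin genes center on 0.03.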

How the data were processed

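Per the labels, RNA of each sample was labeled with Cy3 and hybridized to 1 Agilent array. The authors deposited the scanner output, in which each spot has an intensity, raw and background-subtracted, not normalized between arrays, and a table of normalized intensities. That table's Drp1LiKO column had a rank correlation of 0.958 with its array over probes, so it served as an alternative only. The submitters' processing notes name Feature Extraction 9.5.1.1, the file headers 10.7.1.1.

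Outlier and control spots were left out, log2 processed signals averaged per probe and scaled to the 75th percentile. The 30275 probes kept stood well above background on 1 array or both. Dim signals were raised to the lowest signal well above background, 18.2 in control and 15.0 in Drp1LiKO cells, which makes their ratios bounds. A gene was its brightest probe. The Z score threshold of 2 is that of the study's methods, and its reference population was chosen here. Coordinates, in mm9, were taken from the files.

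The 10 genes and the lists were chosen with earlier results of these data known. Named genes are these 10, *Dnm1l*, genes of each list past the threshold, its 3 brightest and defining cell markers. Other genes were named after their values were seen: *Krt80*, *Cftr*, *Sctr*, *Mfng*, the Notch receptors, *Yap1* and further cell type markers. The values of some genes of the lists are not reported here. On simulated data made from the control array, 200 of 200 changed genes of 18355 were recovered and 0 unchanged ones passed. The changes were set well past the threshold in bright genes, and the noise of unchanged genes far below it. This run therefore checks the code only and gives no error rate for these 2 arrays. Tools were limma 3.58.1 in R 4.3.3, and numpy 2.4.6, scipy 1.17.1, pandas 2.3.3 and, for plots, matplotlib 3.10.9 in Python 3.11.15.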

Additional observations from a re-analysis of the deposited data

How the results depend on the processing

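Against 13 alternatives, the count of the 10 genes lower past the threshold was 0 throughout. The count of higher genes was 2 with normexp background correction, with no filter on dim probes, with a robust Z score built on medians and with a Z score within bins of similar signal (*Krt23* and *Cd24a* each time), and also 2 with no floor for dim signals (*Krt7* and *Krt23*). It was 1, *Krt23*, under the others. Over all genes, normexp correction called 731 of 20165 higher, no filter on dim probes 1355 of 37071 and no floor 821 of 20165. The robust Z score called 1722 of 20165 higher and the Z score within bins 639, where the main setting called 705. The median of the 10 genes lay between -0.04 and 0.08, with its sign turned under 3 alternatives. Without a filter on dim probes the list medians were -0.31 for Notch, -0.47 for other keratins and -0.40 for further progenitor genes, where the median of all genes was also -0.47. With the deposited normalized values the Mallory-Denk list had a median of 0.18. In the setting without a filter, a probe below the floor on both arrays is raised to both floors, which by itself gives a ratio of -0.47. The list medians of that setting therefore include values set by the floors. The cause of the change in the Mallory-Denk list was not tested. *Krt8* lay between -0.14 and 0.11, *Krt18* between -0.15 and 0.07, and *Prom1* between -0.59 and 0.07, so their direction is not settled. With *Krt7* at the detection limit, signal over background sets its size. No paired analysis was possible because each group had 1 array. No array could be left out for the same reason.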
